A study of Mus musculus with 96 samples.

Results

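Replication-dependent histone genes encode the core histones H2A, H2B, H3 and H4, around which DNA is wound, and the linker histone H1, which binds where DNA enters and leaves the nucleosome. They lie in clusters, have no introns, and most of their mRNAs end in a stem-loop instead of a poly(A) tail. They are transcribed mainly during DNA synthesis, under the coactivator NPAT in nuclear structures called histone locus bodies, and some, Hist1h1c and Hist1h2bc among them, are known to give polyadenylated transcripts in non-dividing cells. Most hepatocytes of an adult liver do not divide.

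Accessibility near these genes was measured by ATAC-seq, in which a transposase cuts and tags open DNA, in nuclei captured on beads from livers of female HEP-INTACT mice (labelled hepatocyte nuclei) and female MAC-INTACT mice (labelled macrophage nuclei). Food was withdrawn at ZT12, the start of the active phase, and fasted mice were taken 3, 8, 16 or 24 h later (ZT15, ZT20, ZT4 and ZT12), each time beside mice fed ad libitum. Each of the 16 groups held 4 mice, 64 in all, and the fed mice of each time served to account for daily variation. The promoters that drive the nuclear tag, the strain and the age of the mice are not given in the sources used here, and each cell type comes from mice of 1 line.

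A peak was taken as a histone gene peak where the gene of the nearest transcription start site (TSS) had a name starting with Hist1h, Hist2h, Hist3h or Hist4h and the TSS lay within 50 kb. This found 76 of 46832 peaks in the hepatocyte table and 80 of 30170 in the macrophage table. Of these, 51 in hepatocyte and 64 in macrophage nuclei were promoter peaks, within 1000 bp of the TSS, and 25 and 16 were distal peaks. The peaks were assigned to 44 genes in hepatocyte and 51 in macrophage nuclei, 53 genes over both tables, and 62 peaks had the same coordinates in both. Chromosome 13, with the Hist1 genes, held 65 of the peaks in each table, and chromosome 3, with the Hist2 genes, held 9 in hepatocyte and 11 in macrophage nuclei. All of them passed the filter on low values. The nearest TSS does not show that a peak regulates the gene, and names matching the pattern include genes with other known uses, such as Hist1h2ba, which encodes a testis histone.

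Values are normalized reads per 200 bp peak, given as mean ± SD of 4 mice. A log2 fold change is fasted over fed ± SE on the log2 scale with 2 normalized reads added, which understates the change of low peaks, and a peak is called higher or lower in fasted mice where limma's adjusted p over all tested peaks of the cell type was under 0.05. Reads in peaks per mouse ranged from 2458156 to 6098645 in hepatocyte and from 1729720 to 4637873 in macrophage nuclei. Promoter peaks were listed at 11 of 12 hepatocyte markers in the hepatocyte table, with summed group means from 2173 to 2760 normalized reads. In the macrophage table they were listed at 11 of 12 macrophage markers, with summed group means from 1433 to 1630, and at none of the 12 hepatocyte markers. Markers of other cell types were present too: promoter peaks were listed at 2 of 10 endothelial and 3 of 8 monocyte and neutrophil markers in the macrophage table (summed group means from 50.7 to 84.9 and from 113 to 145), and at 1 of 10 stellate cell and 2 of 8 cholangiocyte markers in the hepatocyte table (from 19.3 to 60.7 and from 58.8 to 130). No promoter peak was listed at the 10 lymphocyte markers in either table. The part of other cell types in the results was not tested. Histone genes of 1 class have nearly the same coding sequence, and how reads with several matching places were treated is not given in the sources used here, so values of single genes are uncertain to that extent.

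The promoters below are shown because their peaks carry the results: Hist1h1d fell furthest of the histone promoters off tRNA genes, Hist1h1c and Hist1h1e are H1 genes with smaller changes, and Hist1h4i and Hist1h4c are H4 genes that moved in opposite directions. Each is the 250 bases upstream of the TSS in RefSeq's GRCm38.p6 (the mm10 build), 5′ to 3′ on the gene's strand, with the motifs searched for in capitals. They lie at chr13:23554782-23555031 on the plus strand (Hist1h1d), chr13:23738557-23738806 on the plus strand (Hist1h1c), chr13:23622559-23622808 on the minus strand (Hist1h1e), chr13:22041363-22041612 on the minus strand (Hist1h4i) and chr13:23698459-23698708 on the minus strand (Hist1h4c).
Hist1h1d: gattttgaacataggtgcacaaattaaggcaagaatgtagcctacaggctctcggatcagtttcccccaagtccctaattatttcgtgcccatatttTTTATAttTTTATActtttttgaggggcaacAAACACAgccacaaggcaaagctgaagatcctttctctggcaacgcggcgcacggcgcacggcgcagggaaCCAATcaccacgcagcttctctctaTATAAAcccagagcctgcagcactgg
Hist1h1c: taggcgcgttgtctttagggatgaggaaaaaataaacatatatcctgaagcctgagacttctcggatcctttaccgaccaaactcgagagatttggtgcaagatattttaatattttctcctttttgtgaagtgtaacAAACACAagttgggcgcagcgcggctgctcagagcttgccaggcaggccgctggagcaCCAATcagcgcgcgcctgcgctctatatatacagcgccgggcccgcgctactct
Hist1h1e: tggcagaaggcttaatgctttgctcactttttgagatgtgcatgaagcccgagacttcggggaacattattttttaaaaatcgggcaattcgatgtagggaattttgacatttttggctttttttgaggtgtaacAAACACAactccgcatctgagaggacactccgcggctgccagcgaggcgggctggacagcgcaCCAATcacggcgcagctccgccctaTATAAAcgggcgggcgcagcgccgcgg
Hist1h4i: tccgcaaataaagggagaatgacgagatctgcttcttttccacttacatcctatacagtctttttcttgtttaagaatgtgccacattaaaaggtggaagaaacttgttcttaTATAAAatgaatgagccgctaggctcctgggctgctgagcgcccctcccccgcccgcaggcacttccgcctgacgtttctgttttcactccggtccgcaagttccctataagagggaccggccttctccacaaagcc
Hist1h4c: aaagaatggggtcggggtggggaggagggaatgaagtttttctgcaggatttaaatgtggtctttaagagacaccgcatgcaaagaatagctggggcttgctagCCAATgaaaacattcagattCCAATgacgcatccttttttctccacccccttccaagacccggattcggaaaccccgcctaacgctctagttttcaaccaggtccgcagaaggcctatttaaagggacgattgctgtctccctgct

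The motifs were the TATA box TATAAA, the CCAAT box CCAAT, the octamer ATTTGCAT bound by Oct1 and the H1 box AAACACA, each searched on both strands with exact letters. RefSeq held a promoter for 44 of the 50 genes with a promoter peak in either table. The CCAAT box stood in 37 of the 44 promoters (84.1%), against 33.9% of all 32851 RefSeq promoters, and in every one of the 34 promoters of H1, H2A, H2B and H3 genes but in 3 of 10 of H4 genes. TATAAA stood in 22 of 44 (50.0%), against 12.4% of all promoters. The octamer stood in 10 of 44 (22.7%), 5 of 12 H2A and 5 of 9 H2B promoters, against 1.60% of all promoters. The H1 box stood in 4 of 5 H1 promoters and 6 of 44 in all (13.6%), against 6.25% of all promoters. In Hist1h1d the H1 box started 122, the CCAAT box 51 and the TATA box 26 bases before the TSS, and in Hist1h1e they started 115, 52 and 27 bases before it. Hist1h1c had the H1 box and the CCAAT box, 112 and 54 bases before the TSS, without the letters TATAAA. Promoters that fell and others held these motifs, counted over genes that had a RefSeq promoter and a hepatocyte promoter peak off tRNA genes. Of these, 12 had such a peak lower at 3 or 8 h in fasted mice, and 9 of the 12 had the CCAAT box and 5 TATAAA. Of the 22 without a lower peak at these times, 20 and 11 had them. Genes without a RefSeq promoter, Hist1h3a and Hist2h2be among them, are not in these counts. A match of letters describes the sequence and does not show a site in use.

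Promoter peaks were listed for 40 histone genes in hepatocyte and 49 in macrophage nuclei, and genes without a listed promoter peak do not enter the levels given here. In hepatocyte nuclei the mean of the histone promoter peaks over 32 mice ranged from 26.1 to 136 normalized reads with a median of 61.9, against a median of 75.3 over all 16351 promoter peaks. In macrophage nuclei it ranged from 23.2 to 274 with a median of 99.7, against 100.3 over all 14138 promoter peaks. The highest in hepatocyte nuclei were the H4 genes Hist1h4c at 136 and Hist1h4a at 111, the H2B genes Hist1h2bc at 114 and Hist1h2bh at 109, and the H2A gene Hist1h2ac at 109. Macrophage nuclei had H4 genes at the top, Hist1h4a at 274, Hist1h4h at 186 (57 bp upstream of the TSS), Hist1h4c at 183 and Hist1h4d at 154, followed by Hist1h2bc at 153. The 2 tables were normalized separately, so their levels are not compared.

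In hepatocyte nuclei most calls of lower accessibility at histone promoters came at 3 and 8 h of fasting. At 3 h, 13 of 51 promoter peaks were lower in fasted mice and none was higher, where 4.18% of all promoter peaks were lower and 8.8% higher. At 8 h, 10 were lower and 1 higher, beside 4.23% and 19.0% of all promoter peaks. At 16 h, 2 were lower and 3 higher, beside 3.02% and 20.2%, and at 24 h, 2 were lower and 7 higher, beside 2.35% and 41.1%. The median log2 fold change of the 51 peaks was -0.30, -0.17, 0.03 and 0.12 at 3, 8, 16 and 24 h, against 0.01, 0.12, 0.16 and 0.26 over all promoter peaks. Below 0 at 3 h were 47 of the 51 peaks, against 48.9% of all promoter peaks, and 39 at 8 h, against 27.0%. With each library centred on its median, 15 were lower and 0 higher at 3 h (4.88% and 8.33% of all promoter peaks), 17 and 0 at 8 h (6.4% and 11.3%), 4 and 2 at 16 h (3.98% and 12.5%), and 2 and 2 at 24 h (2.95% and 26.7%).

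Summed over the promoter peaks, fasted and fed mice were apart at 3 h. The 51 peaks added up to between 2524 and 2836 normalized reads in mice fasted for 3 h, against 2891 to 3747 in fed mice, so the groups did not overlap. At 8 h they added up to 2934 to 3187 in fasted mice, against 3156 to 3694 in fed mice, and the groups overlapped. At 16 h the range was 3516 to 3793 in fasted mice, against 3366 to 3697 in fed mice. At 24 h it was 3157 to 3574 in fasted mice, against 2709 to 3622 in fed mice, and at neither of these later times were the groups apart. All these sums are of values as deposited, without median centring, which moved the median fold change of all peaks at 8 h by -0.08 on the log2 scale. Sums after centring and sums over all promoter peaks were not worked out, so the overlap at 8 h holds for the deposited scaling only.

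Peaks of lower level held most of the calls of lower accessibility at 3 and 8 h. Level is the mean over all 32 mice, fasted ones included, so a fall in fasted mice itself lowers it and a rise raises it. Shares by level among all promoter peaks were not worked out, so nothing particular to histone genes is read from this split. Among the 25 promoter peaks below the median level, 10 were lower at 3 h and 10 at 8 h, against 3 and 0 of the 26 at or above it. At 24 h, 6 of the 7 higher peaks were among those at or above the median level. By class, the peaks lower at 3 h were 2 of 5 at H1, 2 of 9 at H2A, 1 of 13 at H2B, 3 of 9 at H3 and 5 of 15 at H4 genes, 1 of these 5 on a tRNA gene.

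**Figure D1:**
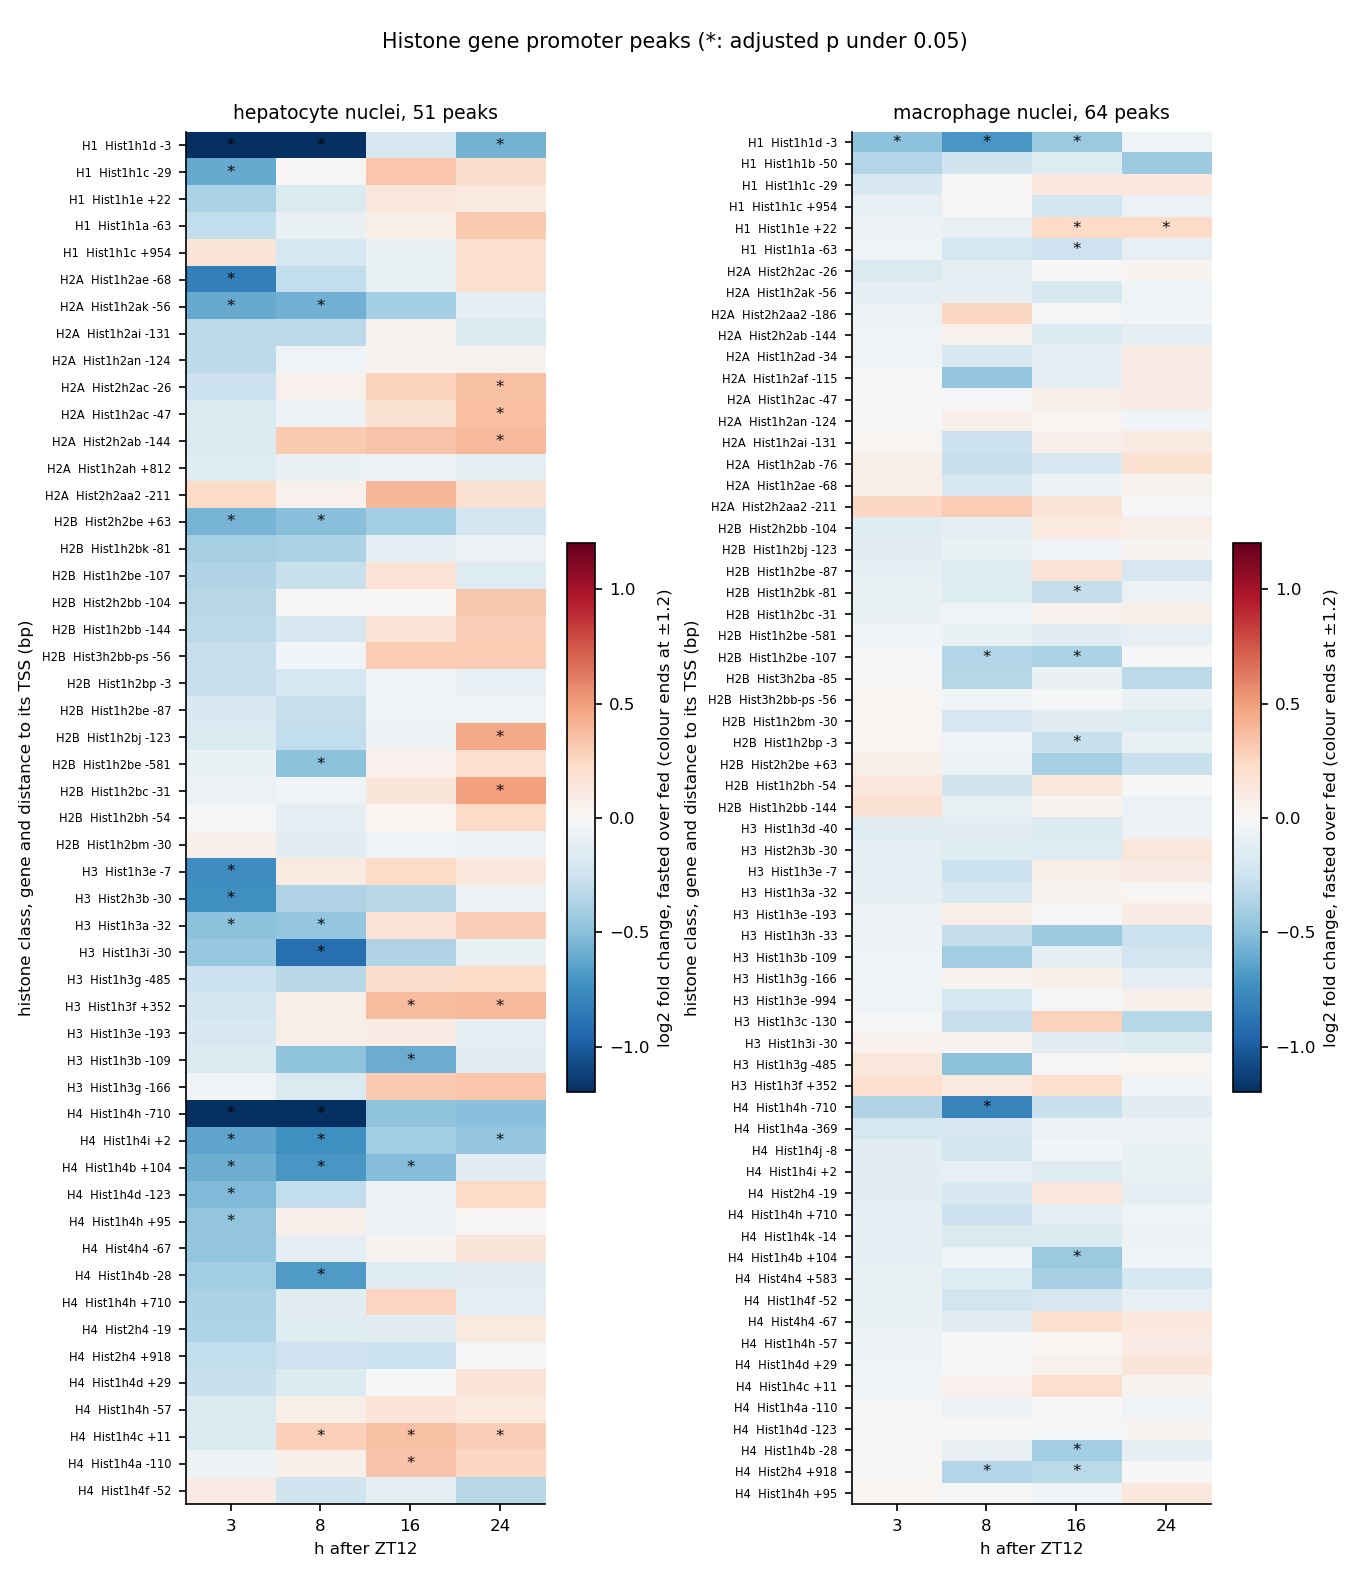
Log2 fold change, fasted over fed, of each histone gene promoter peak at 3, 8, 16 and 24 h after ZT12, in hepatocyte nuclei on the left and macrophage nuclei on the right, 4 fasted and 4 fed mice at each time; labels give the class, the gene and the signed distance to its TSS in bp, blue is lower in fasted mice, the colour ends at ±1.2 and a star marks an adjusted p under 0.05. Stars on blue stand mostly in the 3 and 8 h columns of hepatocyte nuclei, where Hist1h1d and the Hist1h4h peak 710 bp upstream of the TSS are darkest.

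Hist1h1d, which encodes a linker histone H1, fell furthest among the promoter peaks. Its peak at chr13:23554929-23555129, annotated as promoter-TSS, had 17.1, 12.0, 8.73 and 15 normalized reads in hepatocyte nuclei of mice fasted for 3 h, against 52.0, 71.5, 42.5 and 46.4 in fed mice. Every fasted mouse lay below every fed mouse, and the means were 13.2 ± 3.65 in fasted and 53.1 ± 12.9 in fed mice (log2 fold change -1.86 ± 0.22, limma adjusted p = 1.36e-07). At 8 h the fasted mice had 16.4, 14.1, 19.0 and 14.5, against 49.6, 70.6, 57.8 and 67.9 in fed mice, again without overlap (-1.81 ± 0.22, limma adjusted p = 5.67e-08).

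Later in the fast the 2 groups moved closer at this promoter. At 16 h the fasted mice had 41.5, 61.3, 24.0 and 26.2, against 48.2, 39.7, 39.3 and 37.2 in fed mice, so that fasted mice lay both above and below the fed ones (-0.19, limma adjusted p = 0.531). At 24 h the means were 28.1 ± 5.63 in fasted mice and 42.7 ± 8.81 in fed mice (-0.57 ± 0.22, limma adjusted p = 0.0389), a call lost in 5 of the 8 fits that leave out 1 mouse, with adjusted p up to 0.136. The fasting effect on this peak differed between times (limma F test, adjusted p = 0.000112), also in each of 4 fits without 1 replicate number and under 8 other settings.

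Other promoters fell at 3 h by less. At the H2A gene Hist1h2ae, hepatocyte nuclei had 44.0, 32, 32.7 and 45.8 normalized reads in fasted mice, against 68.7, 84.1, 65.8 and 58.8 in fed mice, without overlap (-0.82 ± 0.14, limma adjusted p = 3.83e-05). By 24 h its fold change was 0.20 and not called, and its fasting effect differed between times (limma F test, adjusted p = 0.00168). The H3 genes Hist1h3e (-0.74, 7 bp upstream) and Hist2h3b (-0.73), the H4 gene Hist1h4i (-0.64), the H2A gene Hist1h2ak (-0.61), and Hist1h1c (-0.61 at its TSS) were lower too. So were Hist1h4b (-0.58, 104 bp downstream), Hist2h2be (-0.56), Hist1h4d (-0.53, 123 bp upstream), Hist1h3a (-0.49) and Hist1h4h (-0.47, 95 bp downstream). The second promoter peaks of Hist1h3e, Hist1h4d, Hist1h1c and Hist1h4b were not called at 3 h. The remaining promoter peak lower at 3 h lies 710 bp upstream of Hist1h4h, on a tRNA gene described with the other such peaks.

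At 8 h the H3 gene Hist1h3i came second to Hist1h1d among histone promoters off tRNA genes. Its peak had 28.5, 21.2, 28.7 and 24.8 normalized reads in fasted hepatocyte nuclei, against 55.1, 56.6, 34.8 and 56.5 in fed ones, and the groups did not overlap (-0.91 ± 0.19, limma adjusted p = 0.000271). Hist1h4i fell to 28.5 ± 5.30 in fasted mice, against 48.4 ± 6.19 in fed mice (-0.73 ± 0.17), and the 2 peaks of Hist1h4b fell by 0.70 and 0.68 on the log2 scale. Hist1h2ak, Hist2h2be, Hist1h2be (581 bp upstream) and Hist1h3a were the others lower at 8 h, with log2 fold changes from -0.57 to -0.47. Of the 10 promoter peaks lower at 8 h, all but Hist1h3i, Hist1h2be and 1 peak of Hist1h4b were also lower at 3 h.

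Calls of higher accessibility at histone promoters came at 8 h and later. The H4 gene Hist1h4c (chr13:23698347-23698547) had 160, 178, 172 and 182 normalized reads in hepatocyte nuclei of mice fasted for 16 h, against 138, 133, 141 and 129 in fed mice, without overlap (0.35 ± 0.10, limma adjusted p = 0.00985). Its log2 fold change was -0.17 at 3 h, 0.28 at 8 h and 0.30 at 24 h, and differed between times (limma F test, adjusted p = 0.0244). The call at 8 h was lost in 4 of 8 fits without 1 mouse and in 6 of 11 other settings. At 16 h the H3 gene Hist1h3f (0.38) and the H4 gene Hist1h4a (0.34) were higher as well, and neither had fasted and fed mice overlapping. Each of these 2 calls was lost in 3 of 8 fits without 1 mouse, and in 5 and 4 of 11 other settings. The count of 3 higher promoter peaks at 16 h, beside 20.2% of all promoter peaks, was 0 after quantile normalization and 1 each with edgeR and DESeq2. Hist1h3b (-0.60) and Hist1h4b (-0.52, 104 bp downstream) were lower at 16 h, although fasted and fed mice overlapped at both, and these calls were lost in 4 and 5 of 8 fits without 1 mouse.

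After 24 h the 7 higher promoters were led by H2B genes. Hist1h2bc had 133, 163, 109 and 142 normalized reads in fasted hepatocyte nuclei, against 84.4, 95.5, 104 and 101 in fed ones, and every fasted mouse was higher than every fed mouse (0.49 ± 0.13, limma adjusted p = 0.00407). Hist1h2bj had 82.8 ± 8.99 in fasted mice and 60.0 ± 7.23 in fed mice (0.45 ± 0.13, limma adjusted p = 0.00612), without overlap. The others were Hist1h3f and the H2A gene Hist2h2ab (both 0.39), the H2A genes Hist1h2ac (0.36) and Hist2h2ac (0.35), and Hist1h4c (0.30). These 7 are 13.7% of the 51 histone promoters, beside 41.1% of all promoter peaks. Leaving out 1 mouse moved their number between 2, without fed replicate 1, and 12, without fed replicate 3, and edgeR and DESeq2 each called 1. Lower beside Hist1h1d was Hist1h4i, with 31.4 ± 1.92 in fasted mice and 44.4 ± 7.72 in fed mice (-0.46 ± 0.17, limma adjusted p = 0.0350), a call lost in 6 of 8 fits without 1 mouse. Over the 4 times, the fasting effect differed between times at 13 of 51 promoter peaks, where 18.2% of all promoter peaks did so.

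**Figure D2:**
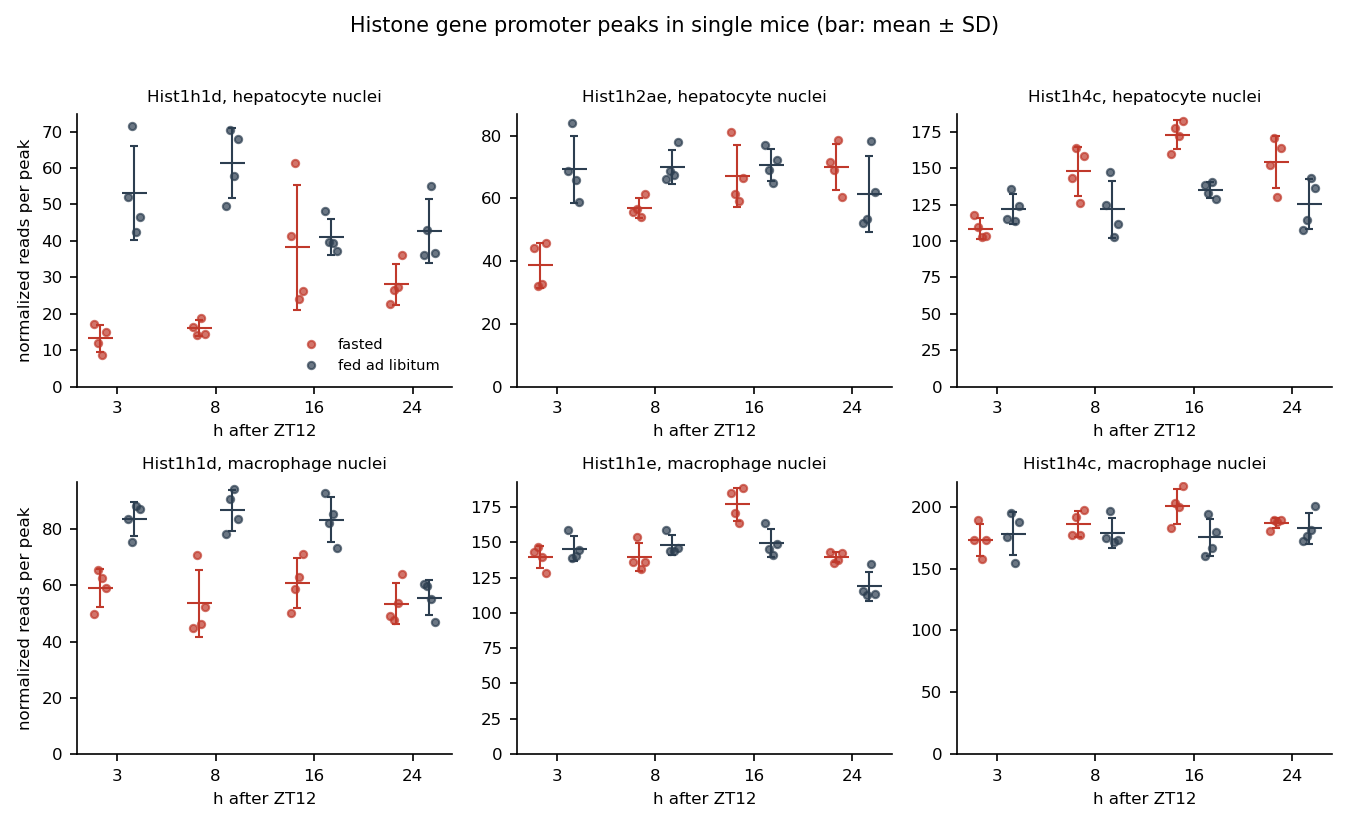
Normalized reads per peak (vertical axis, from 0) in single mice, fasted in red left of fed in dark blue at each of 3, 8, 16 and 24 h after ZT12; the bars give the mean ± SD of 4 mice. In the upper row (hepatocyte nuclei) Hist1h1d is at 13.2 in fasted and 53.1 in fed mice at 3 h, Hist1h2ae is apart at 3 h, and Hist1h4c is higher in fasted mice at 16 h; in the lower row (macrophage nuclei) Hist1h1d is apart at 3, 8 and 16 h.

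Many of the falls at 3 and 8 h were at peaks on tRNA genes between the histone genes. The Hist1 clusters also hold tRNA genes, which RNA polymerase III transcribes, and 11 of the 76 hepatocyte peaks shared bases with a tRNA gene of RefSeq's GRCm38.p6 annotation: 10 distal peaks and the promoter peak 710 bp upstream of Hist1h4h. This split was made after the values were seen and is given as a description. At 3 h, 10 of the 11 were lower and none higher, with a median log2 fold change of -1.27, and at 8 h 9 were lower, with a median of -0.89. At 16 h 3 were lower (median -0.43), and at 24 h 2 were lower and 1 higher (median -0.03). Of all distal peaks, 13.5%, 17.9%, 16.6% and 14.8% were lower at 3, 8, 16 and 24 h, and 17.7% were higher at 24 h. Leaving out 1 mouse moved the lower count between 1 and 7 at 16 h. At 24 h it moved the lower count between 1 and 2 and the higher count between 0 and 2.

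Off tRNA genes, the promoter peaks kept a share of lower calls above that of all promoter peaks, and the distal peaks were near that of all distal peaks. Of the 50 promoter peaks off tRNA genes, 12 were lower at 3 h (median -0.29), beside 4.18% of all promoter peaks, and 9 at 8 h (median -0.17), beside 4.23%. Leaving out 1 mouse moved the 3 h count between 6, without fed replicate 2, and 18, without fed replicate 3, and the 8 h count between 6 and 9. Of the 15 distal peaks off tRNA genes, 3 were lower at 3 h (median -0.27), beside 13.5% of all distal peaks. At 8 h 2 were lower and 1 higher (median -0.06), beside 17.9% and 20.9%. The difference between peaks on and off tRNA genes was not tested.

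Many peaks on tRNA genes elsewhere were lower at 3 and 8 h too. In hepatocyte nuclei 162 other peaks lay on tRNA genes, 126 of them distal and 34 at promoters, and 99 of them (61.1%) were lower in fasted mice at 3 h and 0 higher, with a median log2 fold change of -0.68. At 8 h 64 were lower and 3 higher (median -0.34), at 16 h 42 and 2 (median -0.25), and at 24 h 15 and 31 (median 0.12). Of all distal peaks, 13.5%, 17.9%, 16.6% and 14.8% were lower and 12.4%, 20.9%, 18.9% and 17.7% higher at 3, 8, 16 and 24 h, so the shares at 24 h (9.26% lower) lay near that background. These include 7 of the 8 peaks between histone genes at chr13:21710007-22051168 that were assigned to the other genes Pom121l2, Prss16 and Zfp184, a block in which RefSeq has 34 tRNA genes, and 7 of the 8 were lower at 3 h and 7 at 8 h. In the second block, chr13:23517629-23928976, the 14 peaks assigned to Hfe and to the Slc17a1 to Slc17a4 transporter genes touched no tRNA gene, and 0 were lower and 1 higher at 3 h, and 1 lower and 3 higher at 8 h.

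At single loci the fall was large. The peak at chr13:23521827-23522027, 9117 bp upstream of Hist1h4h and on the serine tRNA gene n-TSgct4, had 19.6, 15, 10.9 and 15.8 normalized reads in hepatocyte nuclei of mice fasted for 3 h, against 71.2, 85.6, 91.9 and 104 in fed mice. Fasted and fed mice did not overlap (-2.39 ± 0.28, limma adjusted p = 1.67e-07), and at 8 h the means were 18.1 ± 2.95 in fasted and 79.5 ± 12.6 in fed mice (-2.02 ± 0.28). At 16 h they were 25.1 ± 16.4 in fasted and 40.3 ± 12.5 in fed mice, overlapping, with a call lost in 5 of 8 fits without 1 mouse. At 24 h they were 33.5 ± 11.5 in fasted and 42.7 ± 15 in fed mice (limma adjusted p = 0.365). Fed mice themselves differed over the day at this peak (limma F test, adjusted p = 0.00248), with fed means of 88.1, 79.5, 40.3 and 42.7 at 3, 8, 16 and 24 h, and the fasting effect differed between times (limma F test, adjusted p = 0.000549).

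The peak on the isoleucine tRNA gene n-TIaat11, at chr13:21855203-21855403 and 21560 bp downstream of the Hist1h2br TSS, had the largest fold change of all histone gene peaks at 3 h. It held 6.52, 4.0, 2.18 and 1.58 normalized reads in hepatocyte nuclei of mice fasted for 3 h, against 37.9, 38.4, 29.5 and 48.6 in fed mice, without overlap (-2.93 ± 0.40, limma adjusted p = 1.88e-06). Here the fall was called at every time, with -3.10 at 8 h, -1.95 at 16 h and -1.52 ± 0.40 at 24 h (4.20 ± 1.55 in fasted and 16.1 ± 6.84 in fed mice). Fasted and fed mice overlapped at 16 h, and the 24 h call was lost in 1 of 10 other settings. The fasted means, 3.38 to 4.20, lay under the filter of 10, which this peak passed through the fed mice, with a mean of 16.0 over all mice. Few reads stand behind the fasted values, which limits these folds.

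Peaks on other tRNA genes of the clusters were lower at 3 h as well, with 1 exception. The peak on the serine tRNA gene n-TSgct5, 7511 bp downstream of the Hist1h2bj TSS, had 17.9, 10, 14.2 and 7.11 normalized reads in mice fasted for 3 h, against 34.0, 43.5, 47.3 and 40.6 in fed mice, without overlap (-1.65 ± 0.23, limma adjusted p = 3.06e-06). It was also lower at 8 h (-1.42) and 24 h (-0.66), where the 24 h call was lost in 4 of 8 fits without 1 mouse. On the methionine tRNA gene n-TMcat9, 710 bp upstream of Hist1h4h, the level was 15.2 ± 3.51 in fasted and 44.6 ± 5.87 in fed mice at 3 h (-1.45 ± 0.26), and -1.27 was the log2 fold change at 8 h. The peak on n-TStga1, 12871 bp upstream of Hist1h4h, fell at 3 h (-1.08) and 8 h (-0.74) and was higher at 24 h (0.61 ± 0.22, limma adjusted p = 0.0270), a call lost in 4 of 8 fits without 1 mouse. The exception was the arginine tRNA gene n-TRtcg1, 4493 bp upstream of Hist1h4h, whose peak was called at no time.

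**Figure D3:**
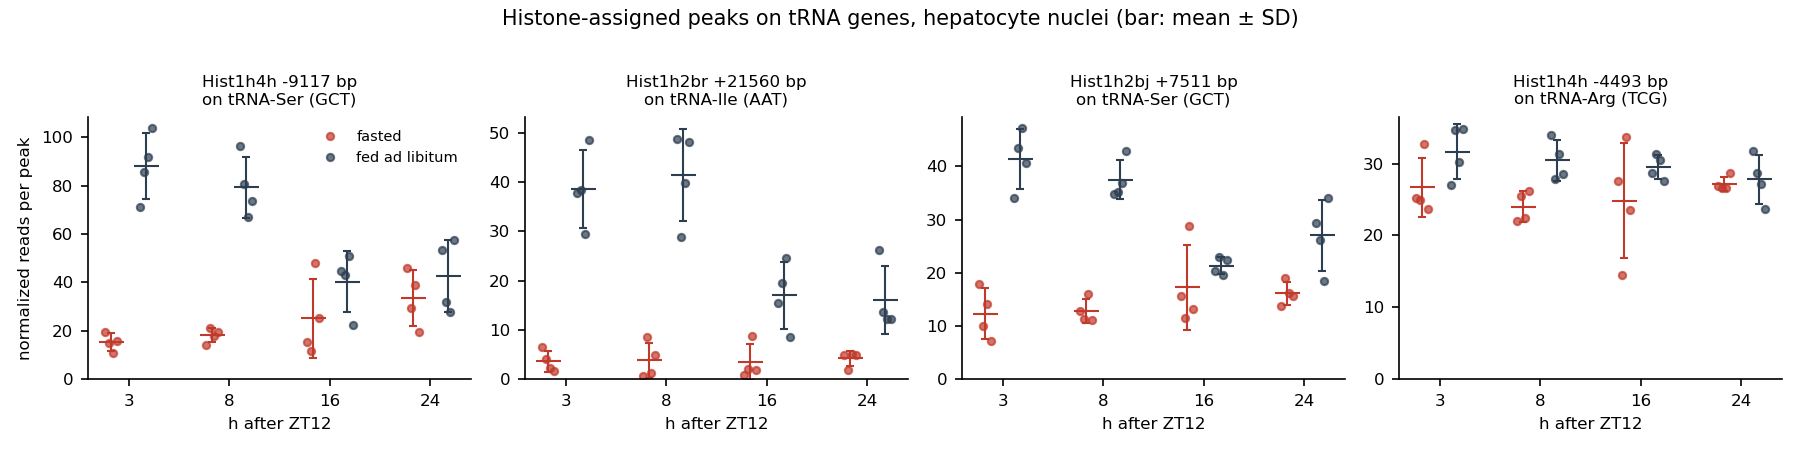
Normalized reads per peak (vertical axis, from 0) in hepatocyte nuclei of single mice at 4 peaks assigned to histone genes that lie on tRNA genes, fasted in red left of fed in dark blue at 3, 8, 16 and 24 h after ZT12, with bars for the mean ± SD of 4 mice. Fasted and fed mice are apart at 3 and 8 h in the first 3 panels, and overlap at 3 h at the peak 4493 bp upstream of Hist1h4h.

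**Figure D4:**
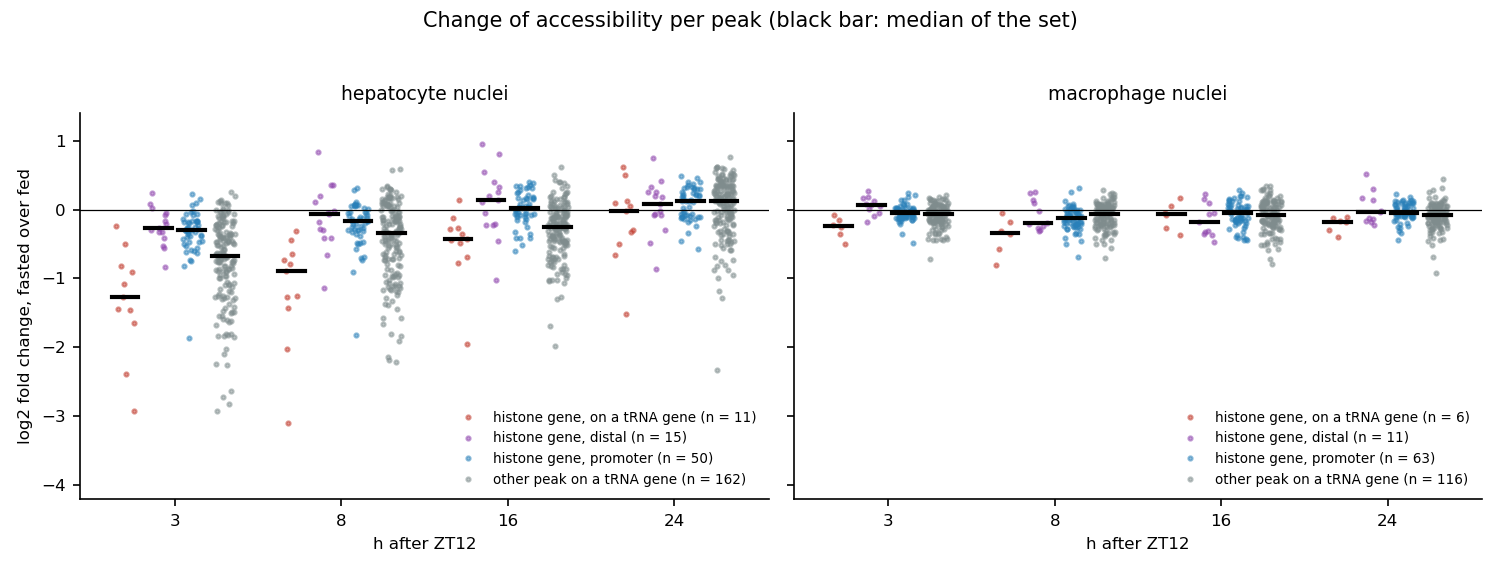
Log2 fold change, fasted over fed, of single peaks (points) and the median of each set (black bars) at 3, 8, 16 and 24 h after ZT12, in hepatocyte nuclei on the left and macrophage nuclei on the right. In hepatocyte nuclei at 3 h the median is -1.27 for histone-assigned peaks on tRNA genes, -0.27 for distal and -0.29 for promoter peaks off tRNA genes, and -0.68 for other peaks on tRNA genes; in macrophage nuclei the points of all sets lie closer to 0.

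Distal peaks of histone genes as a whole numbered 12 lower and 0 higher of 25 at 3 h in fasted hepatocyte nuclei, where 13.5% of all distal peaks were lower and 12.4% higher. At 8 h 10 were lower and 1 higher (17.9% and 20.9% of all), at 16 h 4 and 5 (16.6% and 18.9%), and at 24 h 4 and 2 (14.8% and 17.7%). Centred on library medians, 4 were lower and 2 higher at 16 h (19.0% and 15.1% of all), and 4 and 1 at 24 h (17.0% and 11.1%). Off tRNA genes, the distal peaks near Hist1h1c and Hist1h2bc changed in both directions, mostly from 8 h on. The fasting effect differed between times at 9 of the 25 distal peaks, where 26.8% of all distal peaks did so, and 6 of those 9 lay on tRNA genes.

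The peak 3990 bp downstream of the Hist1h2bc TSS, at chr13:23688089-23688289, had 64.8, 53.0, 87.4 and 59.4 normalized reads in hepatocyte nuclei of mice fasted for 16 h, against 28.7, 39.0, 36.4 and 42.5 in fed mice. The groups did not overlap (0.81 ± 0.15, limma adjusted p = 8.22e-05), nor did they at 24 h, with 65.0 ± 8.66 in fasted and 38.0 ± 4.78 in fed mice (0.74 ± 0.15, limma adjusted p = 0.000331). At 3 h its log2 fold change was -0.09, and the fasting effect differed between times (limma F test, adjusted p = 0.00602). Both calls held under every alternative run.

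Peaks upstream of Hist1h1c, the linker histone gene, went different ways. The peak 2509 bp upstream had 74.0, 45.2, 55.2 and 64.8 normalized reads in mice fasted for 8 h, against 25.7, 35.3, 34.8 and 33.9 in fed mice, all fasted mice being higher (0.83 ± 0.26, limma adjusted p = 0.0125). It was higher at 16 h too (0.95, limma adjusted p = 0.00510), with overlap between the groups. The peak 9490 bp upstream was lower at 8 h (-0.66 ± 0.23) and had 13, 17.7, 15.2 and 24.4 in mice fasted for 16 h, against 48.9, 37.6, 20.6 and 47.8 in fed mice, where 1 fed mouse lay among the fasted ones (-1.02 ± 0.23, limma adjusted p = 0.000664). Between them, the most open distal peak, 8132 bp upstream with a mean of 160, was higher at 16 h by 0.26 on the log2 scale. Such calls depend on the scaling: of the 5 distal peaks off tRNA genes higher at 16 h, 2 remained after median centring. The number was also 2 with quantile normalization, edgeR and DESeq2. The peak 13444 bp upstream was lower at 3 h (-0.55) and 24 h (-0.48). The peak 3269 bp downstream of the Hist1h1a TSS was lower at 3 h (-0.84), 8 h (-1.14) and 24 h (-0.86). The peak 5280 bp downstream of the Hist1h2ba TSS was higher at 16 h (0.55, limma adjusted p = 0.0469), a call lost in 6 of 8 fits without 1 mouse.

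**Figure D5:**
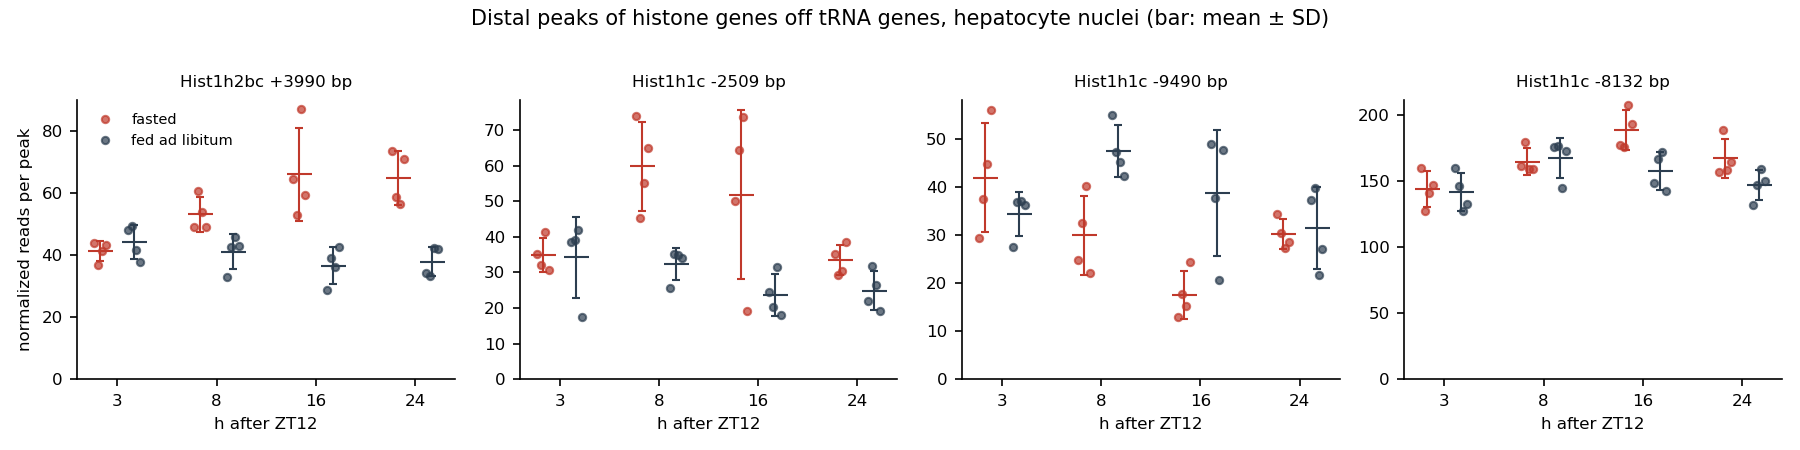
Normalized reads per peak (vertical axis, from 0) in hepatocyte nuclei of single mice at 4 distal peaks of Hist1h2bc and Hist1h1c that touch no tRNA gene, fasted in red left of fed in dark blue at 3, 8, 16 and 24 h after ZT12, with bars for the mean ± SD of 4 mice. Hist1h2bc is higher in fasted mice at 16 and 24 h, and the Hist1h1c peaks 2509 and 9490 bp upstream differ in opposite directions at 8 and 16 h.

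In fed mice, time of day changed few histone promoters. The F test over the 4 fed groups called 3 of 51 promoter peaks in hepatocyte nuclei, where it called 16.3% of all promoter peaks, and 9 of 25 distal peaks, where it called 23.7%. Of these 12 peaks, 6 lay on tRNA genes. The smallest p fell to the peak 8924 bp upstream of Hist1h1c, with fed means of 33.5, 37.4, 28.3 and 18.3 normalized reads at 3, 8, 16 and 24 h (limma F test, adjusted p = 0.000512). Time in fed mice also changed the Hist1h1c peak at 954 bp past its TSS (limma F test, adjusted p = 0.00328), a call lost in 1 of 4 fits without 1 replicate number.

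Macrophage nuclei had few calls at histone genes. Of 64 promoter peaks, 1 was lower and 0 higher at 3 h (0.092% and 0.34% of all promoter peaks), 4 and 0 at 8 h (1.28% and 1.41%), 8 and 1 at 16 h (8.14% and 5.13%), and 0 and 1 at 24 h (3.11% and 2.96%). Of 16 distal peaks, 0 were lower at 3 h (0.164% of all distal peaks), 1 at 8 h (7.48%), 1 at 16 h (23.7%) and 0 at 24 h (11.5%). None of them was higher at 3 h (2.72%), 8 h (1.82%) or 16 h (2.79%), and 1 was at 24 h (3.02%). Median centring moved the median of all peaks by 0.12, 0.14 and 0.10 on the log2 scale at 8, 16 and 24 h in these nuclei. Under it 0 promoter peaks were lower and 6 higher at 16 h (2.04% and 18.4% of all), so the direction at 16 h rests on the scaling, and 2 were lower and 0 higher at 8 h (0.453% and 4.53%).

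Hist1h1d was again the promoter that fell furthest among those off tRNA genes in macrophage nuclei. At 8 h it had 45.0, 71.0, 46.1 and 52.2 normalized reads in fasted mice, against 78.1, 90.8, 94.1 and 83.7 in fed mice, without overlap (-0.69 ± 0.13, limma adjusted p = 0.000601), and this call held under every alternative run. At 3 h the fasted mice had 49.9, 65.5, 62.6 and 58.9, against 83.7, 75.3, 88.2 and 87.3 in fed mice (-0.49 ± 0.13, limma adjusted p = 0.0292), a call lost in 6 of 8 fits without 1 mouse. At 16 h the means were 60.8 ± 8.75 in fasted and 83.4 ± 8.06 in fed mice (-0.45 ± 0.13, limma adjusted p = 0.0109), with an adjusted p of 0.0762 after median centring. At 24 h they were 53.5 ± 7.43 in fasted and 55.6 ± 6.33 in fed mice (limma adjusted p = 0.833), and the fed level itself changed with time (limma F test, adjusted p = 0.00369, lost in 2 of 4 fits without 1 replicate number).

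Elsewhere in macrophage nuclei the tRNA peak 710 bp upstream of Hist1h4h had 23.2, 19.0, 14.7 and 18.8 normalized reads in mice fasted for 8 h, against 31.2, 30.1, 34.2 and 42.3 in fed mice, without overlap (-0.80 ± 0.19, limma adjusted p = 0.00778). This call was lost without fasted replicate 3. Hist1h1e, a linker histone gene, was slightly higher in fasted mice, with 177 ± 11.8 in fasted and 150 ± 10.04 in fed mice at 16 h (0.24 ± 0.08) and 140 ± 3.82 in fasted and 119 ± 10.3 in fed mice at 24 h (0.23 ± 0.08). These calls were lost in 4 and 7 of 8 fits without 1 mouse. Hist1h2be (107 bp upstream) was lower at 8 h (-0.35), a call lost in 7 of 8 fits without 1 mouse and in 5 of 11 other settings, and at 16 h (-0.38), lost in 1 of 8 and 4 of 11. Hist1h4b (104 bp downstream) was lower at 16 h (-0.45), a call lost in 5 of 8 fits and 6 of 11 other settings. The peak 7838 bp downstream of the Hist1h2bj TSS was lower at 16 h (-0.47), a call lost in 0 of 8 fits and 2 of 11 other settings. The tRNA peak 7511 bp downstream of the Hist1h2bj TSS was lower at 8 h (-0.58, limma adjusted p = 0.0448), a call lost in 8 of 8 fits without 1 mouse. The peak 2528 bp upstream of Hist1h4c was higher at 24 h, with 37.2 ± 7.96 in fasted and 25.2 ± 3.25 in fed mice, a call lost in 4 of 8 fits without 1 mouse. The 6 macrophage histone peaks on tRNA genes were lower in 0, 2, 0 and 0 cases at 3, 8, 16 and 24 h, and the 116 other peaks on tRNA genes in 1, 2, 15 and 6 cases, where 0.164%, 7.48%, 23.7% and 11.5% of all distal peaks were lower. As shares the other peaks were 0.862%, 1.72%, 12.9% and 5.17% lower. Of the 116, 26 were promoter peaks, and 0.092%, 1.28%, 8.14% and 3.11% of all promoter peaks were lower at these times. From 8 h on the shares of the other peaks lay between those of all promoter and all distal peaks. The 1 other peak at 3 h and the 2 of 6 histone peaks at 8 h exceeded both.

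The fasting effect differed between times at none of the 80 macrophage histone peaks in limma's F test, beside 1.62% of all promoter and 4.77% of all distal peaks, the smallest adjusted p being 0.0749 at Hist1h1e, 0.0874 at the Hist2h4 peak 918 bp downstream and 0.121 at Hist1h1d. The F test of fed time called 3 promoter peaks (1.08% of all) and 0 distal ones (2.05%): Hist1h1d, Hist1h1e (adjusted p = 0.0217) and Hist1h2be 581 bp upstream (adjusted p = 0.0276). The calls at Hist1h1e and Hist1h2be were lost in 3 and 4 of 4 fits without 1 replicate number. Of the 50 promoter peaks with the same coordinates in both tables, 1 was lower in both cell types at 3 h (Hist1h1d) and 2 at 8 h (Hist1h1d and the Hist1h4h peak on a tRNA gene). At 16 h it was 1 (Hist1h4b, 104 bp downstream) and at 24 h 0. Of the 12 such distal peaks, 1 was lower in both at 8 h and 0 at the other times. The share lower in both over all shared peaks was not worked out. At 3 h, 13 of these 50 promoter peaks were lower in hepatocyte and 1 in macrophage nuclei, beside 4.18% and 0.092% of all promoter peaks. The difference between cell types was not tested.

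Promoters of genes that act on replication-dependent histones had mostly higher calls in fasted hepatocyte nuclei, as all promoter peaks did: 8.8%, 19.0%, 20.2% and 41.1% of all were higher and 4.18%, 4.23%, 3.02% and 2.35% lower at 3, 8, 16 and 24 h. Of 43 promoter peaks of factors for histone gene transcription and mRNA 3′ processing, 9, 10, 9 and 20 were higher in fasted mice at 3, 8, 16 and 24 h and 0 lower at each time, which is 20.9%, 23.3%, 20.9% and 46.5% higher and near the background from 8 h on. E2f3, a cell cycle transcription factor, had 112 ± 14.2 in fasted and 68.3 ± 2.36 in fed mice at 3 h (0.69 ± 0.13, limma adjusted p = 0.000151). Nfyc, a subunit of the CCAAT-binding factor NF-Y, had 90.9 ± 5.38 in fasted and 59.0 ± 6.13 in fed mice at 8 h (0.61 ± 0.12). Slbp, which binds the mRNA stem-loop, had 199 ± 15.6 in fasted and 149 ± 10.4 in fed mice at 24 h (0.41 ± 0.08). Nfyb, another NF-Y subunit, was higher at 24 h (0.49). Of 28 promoter peaks of histone chaperones and carriers, 0, 3, 5 and 16 were higher and 0 lower, and of 15 of replication-independent histone variants, 4, 4, 5 and 8 were higher and 1, 0, 0 and 0 lower. H2afv, a variant H2A gene, had 67.7 ± 7.27 in fasted and 27.8 ± 5.22 in fed mice at 8 h (1.24 ± 0.17, limma adjusted p = 5.57e-07). The 29 distal peaks for transcription and 3′ processing held 6, 4, 5 and 2 lower and 2, 2, 1 and 2 higher ones. Of all distal peaks, 13.5%, 17.9%, 16.6% and 14.8% were lower and 12.4%, 20.9%, 18.9% and 17.7% higher. The lower ones include a peak near Eri1 at 8 h (-1.33 ± 0.21, limma adjusted p = 4.73e-06). Another lay near Pou2f1 at 16 h (-1.08). At 16 h the 8 distal peaks of chaperones and carriers held 1 lower, near Chaf1b (-1.16), and 1 higher. Nothing particular to these lists is read from the counts.

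Genes of DNA synthesis and cell division, with which histone genes are transcribed in dividing cells, had shares of promoter calls near those of all promoter peaks. Of their 32 promoter peaks, 2, 4, 7 and 11 were higher (6.25%, 12.5%, 21.9% and 34.4%) and 1, 0, 0 and 0 lower at 3, 8, 16 and 24 h in fasted hepatocyte nuclei. Their 35 distal peaks held 12, 9, 8 and 6 lower ones, beside 13.5%, 17.9%, 16.6% and 14.8% of all distal peaks, and 4, 7, 5 and 6 higher ones, beside 12.4%, 20.9%, 18.9% and 17.7%. As shares the lower ones were 34.3%, 25.7%, 22.9% and 17.1%. The lower ones include the peak 6379 bp upstream of Mcm5, a subunit of the replicative helicase, with 15.2 ± 4.03 in fasted and 108 ± 20.2 in fed mice at 24 h (-2.68 ± 0.30, limma adjusted p = 6.35e-08). In macrophage nuclei the lists had most calls at 16 h, where 8.14% of all promoter peaks were lower and 5.13% higher. Lower and higher promoter peaks then numbered 3 and 1 of 43 for transcription and 3′ processing, 0 and 3 of 14 for variants, 1 and 0 of 31 for chaperones and carriers, and 5 and 2 of 34 for DNA synthesis and cell division.

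The authors' deposited table called 23, 19, 6 and 9 of the 76 hepatocyte histone peaks at 3, 8, 16 and 24 h and 0, 3, 5 and 0 of the 80 macrophage ones at an adjusted p under 0.05. All of these were among the peaks called here, in the same direction. The peaks outside the histone genes whose 8 group means correlated best with the mean of the promoter peaks were, in hepatocyte nuclei, near Srr (r = 0.990), Irf3 (0.980) and Frmd4a (0.979), and in macrophage nuclei near Maf (0.974), Bend6 (0.974) and Zbtb4 (0.972). These values were picked as the best of all peaks and share libraries with the histone peaks.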

How the data were processed

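ATAC-seq libraries came from 64 female mice, 4 in each of 16 groups, grouped by the labels, and the mouse is the replicate. For each cell type the authors deposited a table of signal by 200 bp peak and mouse. Within each column the values were checked to be whole multiples of a common step (tolerance 0.01), as normalized reads would be that were scaled by a constant for the library. The basis of the scaling is not given in the sources used here. Per the labels, macrophage samples were run in technical duplicates, which the deposited columns hold joined, 1 per mouse. The submitters' processing notes name BWA 0.7.5a-r405, SAMtools, HOMER, DESeq2 and mm10 without a role. The authors also deposited log2 fold changes and adjusted p-values per comparison, used to compare calls. All per-mouse columns were used (0 left out).

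limma 3.58.1 (R 4.3.3, with trend) was fitted to log2 of the signal plus 2, with 8 group means per cell type, over all peaks with a mean of at least 10. Fasted was compared with fed at each time, and F tests compared the fasting effect between times and the fed groups over time, all with Benjamini-Hochberg adjustment over all tested peaks and a threshold of 0.05. The p-values are two-sided for the comparisons of fasted with fed mice. Named by rule were the 5 most open promoter peaks per cell type, up to 3 promoter and 3 distal peaks per direction and comparison by largest fold change, up to 3 peaks per F test, up to 2 peaks per gene list and comparison, and 3 most similar peaks per cell type. The other peaks named complete a count. Gene lists were factors of histone gene transcription and 3′ processing, histone variants, chaperones and carriers, S phase and cell division, and markers of liver cell types. tRNA genes, promoter sequences and current symbols came from RefSeq tables of GRCm38.p6. The peaks, lists and rules were chosen with earlier results of these data known, and the split by tRNA genes, with its alternative, after seeing the data. Alternatives were offsets of 1 and 8, filters, scalings, variance models, a term for library number, edgeR 4.0.16 and DESeq2 1.42.0 on recovered reads, a minimum fold, narrower member windows, and each mouse left out. The limma fit was tested on simulated data. Macrophage markers in the hepatocyte table are not reported here.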

Additional observations from a re-analysis of the deposited data

Results flagged for a closer look

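In 94 groups of 4 mice of the named peaks, the highest or lowest mouse was checked against the other 3, and 8 stood apart by Dixon's 95% criterion. Chance marks about 1 in 20 such groups. In hepatocyte nuclei, fed replicate 3 at 8 h had 34.8 normalized reads at the Hist1h3i promoter, against 55.1, 56.5 and 56.6 in the other fed mice. Fed replicate 1 at 8 h had 25.7 at the peak 2509 bp upstream of Hist1h1c, against 33.9, 34.8 and 35.3. Fasted replicate 1 at 16 h had 43.2 at the peak 5280 bp downstream of the Hist1h2ba TSS, against 37.5, 38.4 and 38.5. The tRNA peak of Hist1h2br held 3 such values: 8.82 in fasted replicate 3 at 16 h, against 0.864, 1.75 and 2.08, then 1.90 in fasted replicate 2 at 24 h, against 4.82, 4.91 and 5.19, and 26.3 in fed replicate 1 at 24 h, against 12.2, 12.2 and 13.5. Fasted replicate 3 at 24 h had 19.5 at the peak 3269 bp downstream of the Hist1h1a TSS, against 12.3, 12.4 and 13.3. In macrophage nuclei, fed replicate 3 at 24 h had 134 at Hist1h1e, against 113, 113 and 115.

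The effect of fasting differed between times, by limma's F test with adjustment over all peaks, at 10 of the named hepatocyte peaks. The adjusted p was 0.000112 at the Hist1h1d promoter, 0.00168 at the Hist1h2ae promoter (log2 fold changes -0.82, -0.29, -0.08 and 0.20 at 3, 8, 16 and 24 h) and 0.0104 at the Hist1h2bj promoter (-0.17, -0.29, -0.06 and 0.45). It was 0.0244 at Hist1h4c (-0.17, 0.28, 0.35 and 0.30) and 0.0257 at Hist1h3f (-0.22, 0.08, 0.38 and 0.39), both turning to higher values after 3 h. Off the promoters it was 0.00602 at the peak 3990 bp downstream of the Hist1h2bc TSS (-0.09, 0.36, 0.81 and 0.74) and 0.0110 at the peak 9490 bp upstream of Hist1h1c (0.24, -0.66, -1.02 and -0.03). On tRNA genes it was 0.000549 at the peak 9117 bp upstream of Hist1h4h, 0.000704 at 12871 bp upstream (-1.08, -0.74, -0.12 and 0.61) and 0.00814 at the peak 7511 bp downstream of the Hist1h2bj TSS (-1.65, -1.42, -0.35 and -0.66).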

How the results depend on the processing

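The counts of histone peaks called were recomputed under 236 alternatives, of which 173 stayed within 1.5 times and 63 moved further. Without the peaks on tRNA genes, added after seeing the data, hepatocyte counts were 15 at 3 h (against 25), 13 at 8 h (against 22) and 6 for time in fed mice (against 12), and the macrophage count at 8 h was 3 (against 5). The hepatocyte count of 14 at 16 h was 4 after quantile normalization, 4 with only the 8 mice of the comparison and 7 with a minimum of 1.5-fold. The count of 15 at 24 h was 9 after median centring, 8 with edgeR, 8 with DESeq2 and 5 with the minimum fold. The macrophage count of 1 at 3 h was 0 with the minimum fold. That of 5 at 8 h was 2 after centring, 3 after quantile normalization, 3 with edgeR, 2 with DESeq2 and 2 with the minimum fold. That of 10 at 16 h was 2 after quantile normalization, 4 with only 8 mice, 5 with edgeR, 2 with DESeq2 and 0 with the minimum fold, that of 2 at 24 h was 0 with only 8 mice and 0 with the minimum fold, and the count of effects differing between times was 1 after centring, against 0. Leaving out 1 mouse gave 18 to 29 at 3 h, 18 to 23 at 8 h, 9 to 13 at 16 h (9 without fed replicate 1) and 8 to 18 at 24 h (8 without fasted replicate 2) in hepatocyte nuclei, and 0 to 1, 1 to 4 (1 without fasted replicate 3), 4 to 11 (4 without fasted replicate 1) and 0 to 2 in macrophage nuclei. Leaving out 1 replicate number gave 5 to 26 effects differing between times (5 without number 2, against 22) and 4 to 9 peaks changing with time in fed mice (against 12) in hepatocyte nuclei, and 0 and 0 to 1 (against 3) in macrophage nuclei. For the 59 results at named peaks, 858 of 1033 alternatives kept the direction and the call, 174 lost the call, 1 gained it and 0 changed direction, and 26 results held under every alternative. No paired analysis was possible because replicate numbers were given in accession order and the labels pair no mice between groups. The fasted values at the Hist1h2br tRNA peak rest on few reads, and with 4 mice a group a missing call does not show that groups are alike. Reads shared between near-identical histone or tRNA gene copies were not analysed here.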

Other observations

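Levels of single histone classes differed within 1 table. In hepatocyte nuclei the median promoter level was 63.6 normalized reads at H4, 63.1 at H2B, 61.2 at H1, 51.5 at H2A and 38.5 at H3 genes. In macrophage nuclei it was 113 at H2B, 107 at H4, 103 at H1, 81.8 at H2A and 64.5 at H3 genes, so that H3 promoters were lowest in both tables. All peaks are 200 bp wide. The differences between classes were not tested.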
